A study of Homo sapiens with 28 samples.

Results

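The proto-oncogenes MYC, MYCN and MYCL, their shared partner MAX, and MXD1, MXD3, MXD4, MXI1, MNT and MLX form a network of transcription factors. These 10 genes were followed by total RNA sequencing of the Ewing sarcoma cell line SKNMC while the EWS-FLI1 fusion or the chromatin remodeler CHD4 was knocked down. They were taken by symbol, whatever their values, from the 35488 genes of the deposited table, where each symbol occurred once. All 10 were among the 21025 genes tested, which had a mean of at least 10 normalised counts over the 28 libraries. A normalised count is the number of reads of a gene divided by 1 size factor per library. SKNMC is an established human tumour line, and Ewing sarcoma cells are driven by a fusion of EWSR1 with the ETS factor FLI1. The cells of each group carried a doxycycline-inducible short hairpin RNA, and every group, controls included, received 100 ng/ml doxycycline for 24 or 48 h. The groups were the control hairpin shScramble (5 libraries at each time), shFLI1, labelled as EWS-FLI1 knockdown (3 libraries at each time), and the CHD4 knockdown hairpins shCHD4#1 and shCHD4#2 (3 libraries of each at each time). CHD4 is the ATPase of the nucleosome remodeling and deacetylase (NuRD) complex. Whether a hairpin line was 1 clone or a pool of cells is not given in the sources used here. All hairpins of a time were compared with the same shScramble libraries, so their changes are given side by side and not as independent tests. In bulk RNA, fewer cells that express a gene and less of its RNA per cell cannot be told apart.

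MYC, MYCN and MYCL are basic helix-loop-helix leucine zipper proteins. Each binds DNA as a dimer with MAX, most often at the E-box CACGTG, and recruits acetyltransferases and elongation factors to genes of ribosome production, metabolism and cell division. MXD1, MXD3, MXD4, MXI1 and MNT also pair with MAX and bind E-boxes, but they recruit SIN3 corepressors with histone deacetylases and so oppose MYC. MLX is the MAX-like partner of the glucose-sensing factors MLXIP and MLXIPL, and it can also pair with MXD1, MXD4 and MNT.

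Network proteins bind E-boxes, so the 250 bases before the start of each gene were searched for CACGTG, which reads the same on both strands. RefSeq promoter windows (GRCh38.p14) were on hand for 9 of the 10 genes, all but MYC, in 12 windows. An E-box lay in the windows of 3 genes, MLX, MNT and MXD4, and 6.34% of the 35116 promoters of that length hold one. Shares here are per promoter, whereas members are counted per gene, and MAX and MXI1 had more than 1 window. All 10 members, these 3 among them, were called changed with at least 1 hairpin. The stretches of these 3 genes are shown because the E-box is the site that their own dimers bind. Each is printed on the strand of its gene with the E-box in capitals and up to 30 bases on each side that lie outside annotated exons.
MXD4, chr4:2262312-2262359, minus strand: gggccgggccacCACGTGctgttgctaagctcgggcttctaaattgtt
MNT, chr17:2401218-2401283, minus strand: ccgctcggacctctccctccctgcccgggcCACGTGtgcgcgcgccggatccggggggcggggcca
MLX, chr17:42567020-42567067, plus strand: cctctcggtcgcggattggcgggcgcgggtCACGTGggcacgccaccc
The E-box begins 238 bases before the start of MXD4, 193 before that of MNT and 50 before that of MLX. These distances are to the RefSeq start of each window, which in all 3 genes lies inside the GENCODE 29 span given below. The GGAA tandem GGAAGGAA, the kind of repeat that EWS-FLI1 binds, was searched on both strands and was in 0 of the 9 genes, against 3.06% of all promoters. The ETS core CCGGAAG was in the window of 1 gene, MAX, against 8.52% of all promoters. A match is a run of letters in a window and not a bound site.

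The libraries held 46102707 to 64775442 gene reads. FLI1, whose count includes the FLI1 portion of the fusion, was at 3616 to 4735 normalised counts with shScramble and 1733 to 2021 with shFLI1 at 24 h, and at 3091 to 4306 and 1566 to 1829.6 at 48 h. CHD4 was at 10099 to 12879 with shScramble at 24 h and 9343 to 13100 at 48 h, against 2747 to 3226 and 2959 to 3482 with shCHD4#1 and 2785 to 3464 and 2722 to 2801 with shCHD4#2. FLI1 was also called lower with shCHD4#2 at 48 h (2634.5 to 3343, log2 change -0.34), a call lost in 8 of 19 alternatives. CHD4 was called higher with shFLI1 at 24 h (13802 to 16011, log2 change 0.34), a call lost in 3 of 18 alternatives. The genotype label of the shScramble libraries at 48 h reads CHD4 knockdown, which their CHD4 counts go against, and they were grouped by their treatment label. All 7 Ewing sarcoma markers examined were present, among them CD99 at 2390 to 7744 and NKX2-2 at 1350 to 3518. Their summed level was lower with shFLI1 (20120 to 25890 at 24 h and 15860 to 23520 at 48 h) than with shScramble (55000 to 75850 and 43820 to 72420). The blood cell marker CD3E had a median of 0, PTPRC ran from 22.4 to 333, and the summed level of the 3 blood markers reported here was 344 to 386 with shFLI1 at 24 h against 73.2 to 121 with shScramble. The summed level of the 3 neuroblastoma markers measured, HAND2, GATA3 and DBH, was 621 to 963 against 262 to 419. The summed level of the 5 epithelial markers was lower with shFLI1 (4002 to 5140 at 24 h and 4683 to 5063 at 48 h, against 8243 to 10700 and 9385 to 14810), and also with shCHD4#2 at 48 h (4066 to 6023), where the blood markers were at 154 to 188 against 102 to 119. Mitochondrial ribosomal RNA made up 18.0 to 19.9% of reads with shFLI1 at 24 h and 22.1 to 22.5% at 48 h, against 15.2 to 18.0% with shScramble. The part of these shifts in the results below was not tested. By their share of reads on processed pseudogenes the libraries fell into a first kind, replicates 1 and 2 in all groups but shFLI1 (0.313 to 0.388%, 12 libraries), and a second kind, the other 16 with all shFLI1 libraries (0.223 to 0.283%). The labels do not name this split. A CHD4 hairpin set against shScramble replicates 3 to 5 alone, all of the second kind, mixes library kind with knockdown. Each comparison of a CHD4 hairpin with shScramble was therefore also computed from second-kind libraries alone, a check chosen after the data were seen. There 1 knockdown library meets 3 controls and is assumed to vary like the other groups. Comparisons between the CHD4 hairpins, of shFLI1 with their mean, and between times had neither this check nor a term for library kind.

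In the control cells the network was dominated by MYC. MYC (ENSG00000136997; chromosome 8, 127735434 to 127741434, plus strand, GRCh38 with GENCODE 29) stood at 15662, 16974, 17974, 17115 and 18821 normalised counts in the 5 shScramble libraries at 24 h. Per kb of exon, a rough scale for comparing genes, MYC had 5768 ± 394 normalised counts (SD, n = 5). The length is that of all annotated exons of a gene (3001 bases for MYC, 4430 for MAX, 7058 for MXD4) and can exceed the transcript expressed. The order of the genes and the ratios below depend on it. MXI1 followed at 439 ± 46.1, MXD4 at 349 ± 72.4, MLX at 348 ± 70.9 and MAX at 337 ± 56.6 per kb, and each of these overlapped its neighbour in the order over the 5 libraries. MXD1 came next at 242 ± 15.5 per kb, its libraries overlapping those of MAX. MNT at 180.0 ± 18.1, MXD3 at 129 ± 10.8, MYCN at 51.1 ± 7.04 and MYCL at 25.1 ± 1.80 per kb each lay apart from the gene above and below. The order of the 10 genes was the same with shScramble at 48 h, where MYC had 5765 and MYCN 46.0 per kb and where the libraries of MYCN and MYCL overlapped. MYC supplied 98.7 ± 0.0814% of the summed level per kb of the 3 MYC genes at 24 h. None of the 10 genes was called changed between 24 and 48 h of shScramble, in a comparison where limma called 0% of all genes and 485 genes had an unadjusted p under 0.05, while DESeq2 called 2. For MYC that difference was -0.0063 ± 0.14 log2 (SE).

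**Figure D1:**
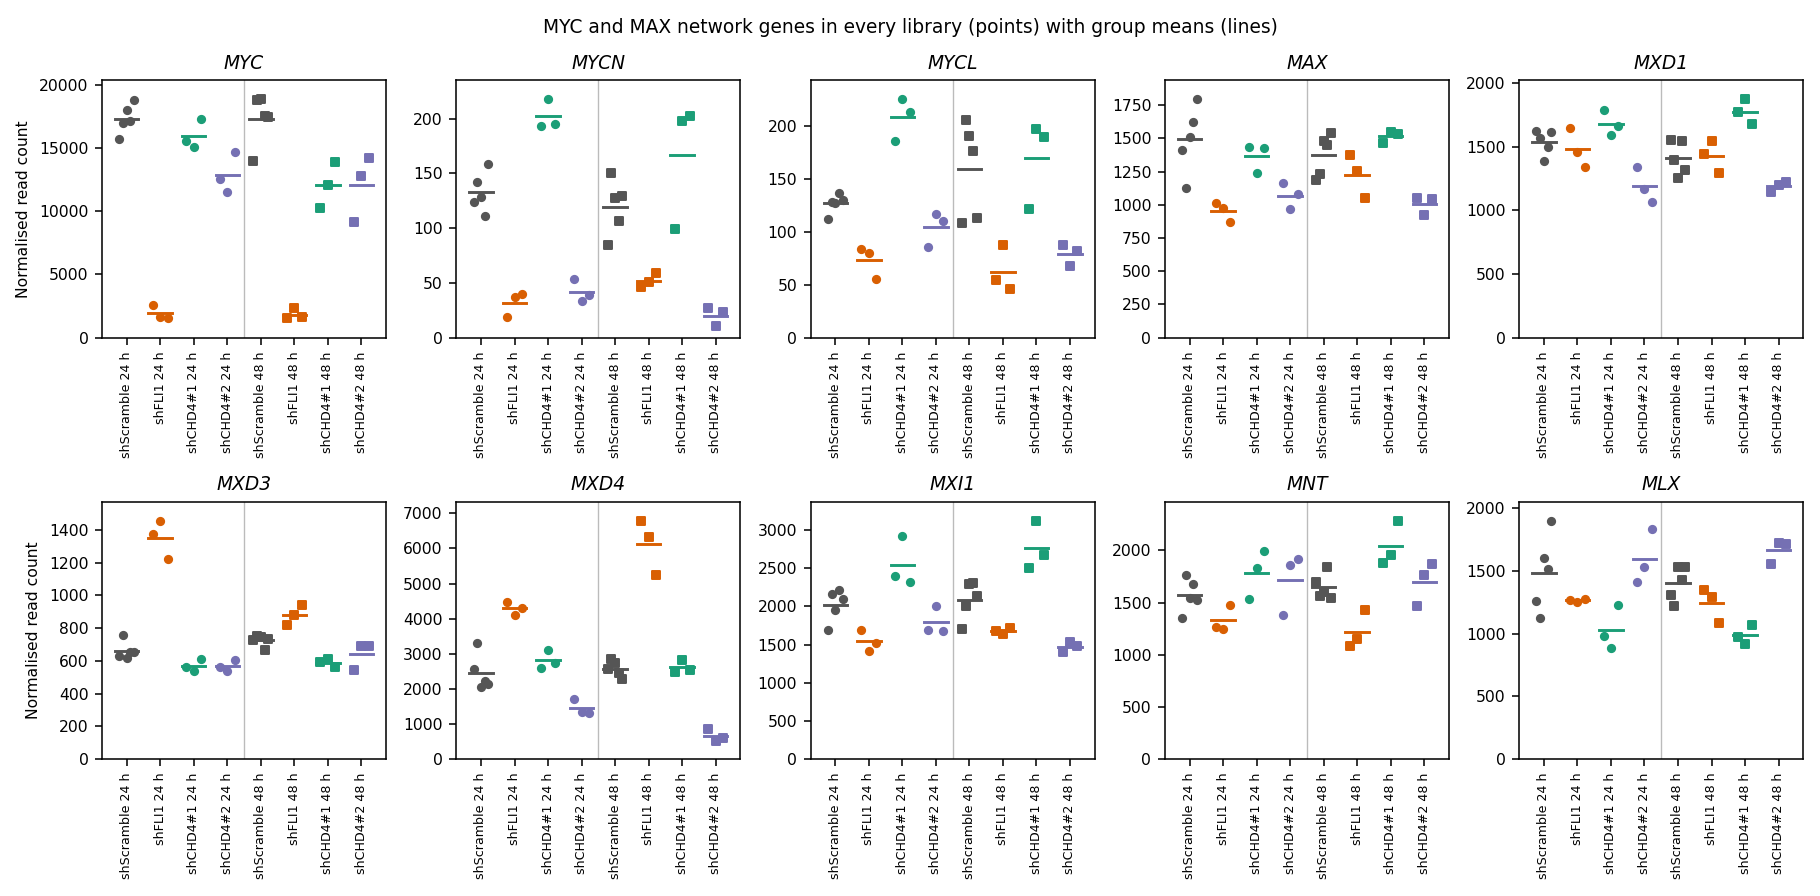
Normalised read count (y axis, linear from 0) of each of the 10 genes in every library (points; circles 24 h, squares 48 h) by hairpin and time (x axis), with the group mean as a line. MYC falls from between 15662 to 18821 with shScramble to between 1542 to 2615 with shFLI1 at 24 h, while MXD4 is highest with shFLI1 (5236 to 6790.1 at 48 h) and lowest with shCHD4#2 (512 to 843 at 48 h).

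Knockdown of EWS-FLI1 lowered all 3 MYC genes and raised MXD3 and MXD4. Of the 10 genes, 2 rose, 5 fell and 3 did not pass the test at 24 h, where 46.7% of all genes were called, and the counts were the same at 48 h, where 63.9% were called. The 7 of 10 members called at each time stand beside these shares of all genes. MYC, the main MYC gene of these cells, was at 2615, 1663 and 1542 normalised counts with shFLI1 at 24 h and 1551, 2303 and 1594 at 48 h, against 13959, 18814, 18836, 17494 and 17401 with shScramble at 48 h. Every shFLI1 library lay far below every control library. The log2 fold change was -3.19 ± 0.14 (SE; limma, adjusted p = 1.54e-09) at 24 h, 9.16-fold lower, and -3.27 ± 0.16 (adjusted p = 8.74e-10) at 48 h, 9.63-fold lower. MYC was already at this level at 24 h, since the change from 24 to 48 h was -0.072 with a 95% interval of -0.54 to 0.40. In both times the call was the same in each alternative run.

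MYCN, the neuronal MYC gene (chromosome 2, 15940564 to 15947007, plus strand, with the antisense gene MYCNOS over it), was low in these cells, at 124, 142, 129, 111 and 159 normalised counts with shScramble at 24 h. With shFLI1 it was at 18.6, 36.9 and 39.8 at 24 h and 46.1, 50.6 and 59.2 at 48 h, below all control libraries of each time. Its fall was -2.09 ± 0.23 log2 (adjusted p = 5.38e-06) at 24 h and -1.17 ± 0.30 (adjusted p = 0.00349) at 48 h. MYCL, the lowest of the 3 per kb in control cells (chromosome 1, 39895426 to 39902256, minus strand, with AL033527.2 antisense to it), was at 83.7, 80.4 and 55.3 with shFLI1 against 112, 128, 128, 137 and 130.0 with shScramble at 24 h, and the groups did not overlap. At 48 h it was at 54.3, 87.4 and 45.7 against 109, 206, 191, 176 and 113, also without overlap although the controls spread widely. MYCL fell at both times, with log2 changes of -0.81 (adjusted p = 0.00105) and -1.341 (adjusted p = 0.000502). MAX, the obligate partner of the MYC proteins (chromosome 14, 65006174 to 65102695, minus strand), was at 1017, 979 and 873 normalised counts with shFLI1 against 1414, 1124, 1514, 1625 and 1795 with shScramble at 24 h, with no overlap, and fell by 0.63 (adjusted p = 0.00123). At 48 h MAX was at 1378, 1252 and 1052 against 1184, 1233, 1480.4, 1450.3 and 1544, overlapping, with a log2 difference of -0.17 (adjusted p = 0.195) that did not pass. The change in MAX between the times was 0.46 (adjusted p = 0.069) and did not pass either. The MAX locus is overlapped on the other strand by FNTB and CHURC1-FNTB, and the strand setting of the read counting is not given in the sources used here.

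Of the MAX partners that oppose MYC, MXD4 and MXD3 rose with shFLI1. MXD4 (chromosome 4, 2247432 to 2262294, minus strand), found in differentiating cells, was at 4466, 4113 and 4295 normalised counts with shFLI1 at 24 h and 6790.1, 6314 and 5236 at 48 h. The shScramble libraries were at 2572, 3308, 2060.2, 2226 and 2145 and 2557, 2837, 2746, 2442 and 2292, so that all shFLI1 libraries were higher. MXD4 rose by 0.82 ± 0.14 log2 (adjusted p = 0.000273) at 24 h and by 1.24 ± 0.14 (adjusted p = 2.14e-06) at 48 h, 2.37-fold. MXD3 (chromosome 5, 177301461 to 177312757, minus strand), known for its expression in cycling cells in S phase, was at 1374, 1456 and 1224 with shFLI1 against 629, 757, 616, 657 and 655 with shScramble at 24 h. It rose by 1.03 ± 0.10 (adjusted p = 1.28e-06), 2.04-fold, with every shFLI1 library above every control. At 48 h MXD3 was at 817, 881 and 942 against 729, 754, 747, 664 and 732, still without overlap, a rise of 0.28 ± 0.10 (adjusted p = 0.0243). The call at 48 h was lost without shScramble replicate 4 (adjusted p = 0.057), shFLI1 replicate 2 (0.0645) or shFLI1 replicate 3 (0.102), and it was also lost when each library was centred on its median (0.16, adjusted p = 0.18). The rise was smaller at 48 than at 24 h, a log2 difference of -0.75 ± 0.13 (adjusted p = 0.00021), the one member of 10 whose shFLI1 change differed between the times, where 16.7% of all genes did (9.44% with a lower value at 48 h). For MXD4 that difference was 0.42 (adjusted p = 0.174).

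MXI1, MNT, MXD1 and MLX moved little with shFLI1. MXI1, the most abundant of the opposing factors per kb in control cells (chromosome 10, 110207605 to 110287365, plus strand), was at 1692, 1410.5 and 1526 with shFLI1 against 1690.1, 2168, 1949.9, 2219 and 2095 with shScramble at 24 h. The lowest control lay just below the highest shFLI1 library, and MXI1 fell by 0.39 (adjusted p = 0.0116). At 48 h it was at 1677, 1632 and 1720.5 against 1698, 2006, 2299, 2303 and 2135, again overlapping, and fell by 0.31 (adjusted p = 0.0182). Without shFLI1 replicate 2 both calls were lost (adjusted p = 0.0684 and 0.0623), and quantile normalisation ended the one at 48 h (-0.17, adjusted p = 0.123). MNT, the most widely expressed antagonist (chromosome 17, 2384060 to 2401118, minus strand), was at 1079.5, 1150 and 1429.8 at 48 h against 1695, 1563, 1602, 1841 and 1547, with no overlap, and fell by 0.44 (adjusted p = 0.00322). Its 24 h value of -0.24 (adjusted p = 0.146) did not pass. MXD1, the founding MXD gene (chromosome 2, 69897688 to 69942945, plus strand), ran from 1339 to 1649 with shFLI1 and 1386 to 1622 with shScramble at 24 h, a difference of -0.058 with a 95% interval of -0.27 to 0.15, and at 48 h the interval was -0.18 to 0.21. MLX (chromosome 17, 42567068 to 42573239, plus strand) was at -0.20 (adjusted p = 0.303) and -0.18 (adjusted p = 0.145). At 48 h MLX was -0.27 (adjusted p = 0.0245) and MAX -0.29 (adjusted p = 0.0212) against shScramble replicates 3 to 5 alone, which are of the same library kind as shFLI1, and MLX was -0.40 (adjusted p = 0.0254) at 24 h. With library kind as a term MNT (-0.30, adjusted p = 0.0445) and MLX (-0.37, adjusted p = 0.00191) also passed at 24 h. At 48 h MLX and MAX also passed with the kind term (adjusted p = 0.0218 and 0.0482) and with median centring (0.0186 and 0.0319).

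**Figure D2:**
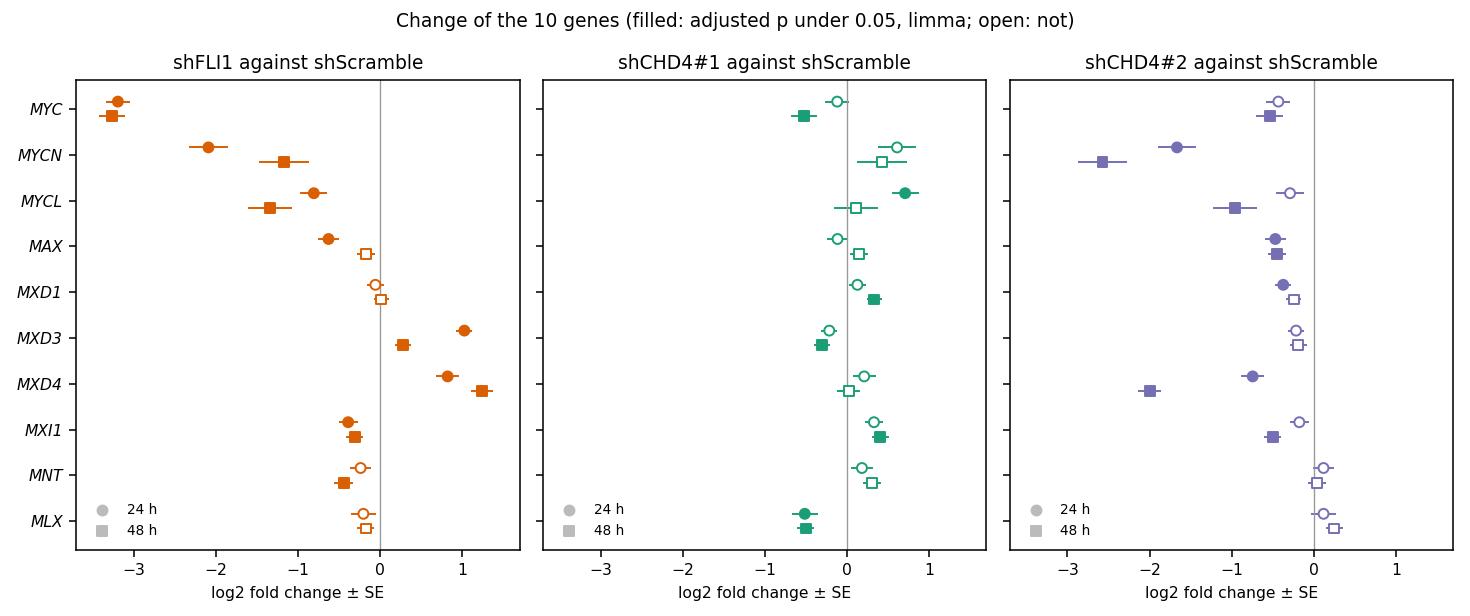
log2 fold change against shScramble (x axis, points with SE) of each of the 10 genes (y axis) for shFLI1, shCHD4#1 and shCHD4#2 at 24 h (circles) and 48 h (squares), filled where the adjusted p is under 0.05. MYC stands furthest from 0 with shFLI1 (-3.19 and -3.27), and MYCN (-2.57) and MXD4 (-1.998) do so with shCHD4#2 at 48 h.

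The CHD4 hairpins lowered MYC by far less than shFLI1 did. MYC was at 15531, 15057 and 17251 normalised counts with shCHD4#1 and 12504, 11512 and 14639 with shCHD4#2 at 24 h, and at 10268, 12072 and 13857 and 9171, 12786 and 14209 at 48 h. At 24 h its log2 change was -0.12 (adjusted p = 0.663) and -0.43 (adjusted p = 0.0736), and neither passed, although the shCHD4#2 libraries lay below all controls. With shCHD4#2 the call at 24 h was made by DESeq2 (adjusted p = 0.049), with only the groups compared (0.049) and with library kind as a term (-0.38, adjusted p = 0.0433). At 48 h MYC fell by 0.52 (adjusted p = 0.0275) with shCHD4#1 and by 0.54 (adjusted p = 0.0184) with shCHD4#2. The shScramble and shCHD4#1 groups did not overlap at 48 h, and the lowest shScramble library, replicate 1 at 13959, lay below the highest shCHD4#2 library. These calls rested on single libraries: that of shCHD4#1 was lost without shScramble replicate 3 (adjusted p = 0.0575), shCHD4#1 replicate 1 (0.125) or replicate 2 (0.0808), and that of shCHD4#2 without its replicate 1 (0.105). Quantile normalisation ended both (adjusted p = 0.0986 and 0.0737), and in second-kind libraries alone MYC was -0.37 (adjusted p = 0.206) and -0.33 (adjusted p = 0.232). Tested directly, shFLI1 lay below the mean of the CHD4 hairpins, at -2.92 ± 0.14 log2 (adjusted p = 2.06e-09) at 24 h and -2.74 ± 0.16 (adjusted p = 3.14e-09) at 48 h.

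With shCHD4#1, 1 member rose, 1 fell and 8 did not pass at 24 h (5.21% of all genes called higher, 6.14% lower and 11.3% in all), and 2 rose, 3 fell and 5 did not pass at 48 h (12.9%, 15.5% and 28.4%). MYCL was at 186, 226 and 213 at 24 h, above every shScramble library, and rose by 0.71 ± 0.17 (adjusted p = 0.0124), a call lost without shCHD4#1 replicate 2 (0.0828) and in second-kind libraries alone (0.69, adjusted p = 0.186). At 48 h MYCL overlapped its controls (0.11, adjusted p = 0.8). MYCN was at 193, 218 and 196 at 24 h, also above every control library, with a log2 difference of 0.61 (adjusted p = 0.112) that did not pass in limma. It passed with only the groups compared in the fit (adjusted p = 0.0428) and in DESeq2 (adjusted p = 0.0497), and at 48 h in second-kind libraries alone (0.74, adjusted p = 0.044). MLX, the MLXIP partner, was at 974, 920.0 and 1068 at 48 h against 1311, 1216, 1534, 1424 and 1529 with shScramble, every knockdown library lower, and fell, with a log2 change of -0.50 ± 0.10 (adjusted p = 0.00231), the same call in each alternative run. At 24 h MLX was at 977, 886 and 1227 against 1261, 1128, 1605, 1513 and 1899.7 and fell by 0.51 (adjusted p = 0.0465). That earlier call was lost without shScramble replicate 3, 4 or 5 or shCHD4#1 replicate 1 or 2 (adjusted p from 0.0828 to 0.247), with no filter on low values (0.074), with only the groups compared in the fit (0.115) and in second-kind libraries alone (0.115). The opposing factors MXI1 and MXD1 rose at 48 h, MXI1 from 1698, 2006, 2299, 2303 and 2135 to 2505, 3122 and 2672 (0.41 ± 0.10, adjusted p = 0.00963) and MXD1 from 1550, 1399.8, 1254, 1546 and 1314 to 1775, 1873 and 1678 (0.33 ± 0.093, adjusted p = 0.0152). In both genes all knockdown libraries lay above all controls. Without shCHD4#1 replicate 2 both calls were lost (adjusted p = 0.0721 for MXI1 and 0.0802 for MXD1), as they were in second-kind libraries alone (0.25, adjusted p = 0.0602, and 0.30, adjusted p = 0.159).

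Blocking by replicate number, which treats CHD4 and shScramble libraries of the same number as pairs, moved some of these calls. Under the block MXI1 with shCHD4#1 at 24 h was 0.40 (adjusted p = 0.0415) against 0.33 (adjusted p = 0.0785) without it, and MNT at 48 h was 0.33 (adjusted p = 0.0491) against 0.30 (adjusted p = 0.0567). MXD3 at 48 h, at 594, 611 and 561 against 729, 754, 747, 664 and 732, fell by 0.30 (adjusted p = 0.0361) and lost its call under the block (-0.34, adjusted p = 0.0521). That call was also lost without each library in turn except shScramble replicate 4 (adjusted p from 0.0517 to 0.121). MAX and MXD4 with shCHD4#1 were within -0.11 to 0.14 and 0.024 to 0.21 log2 of the controls and did not pass at either time. Against shScramble replicates 3 to 5 alone MXD4 at 24 h was 0.39 (adjusted p = 0.0259), a call. There the controls are all of the second kind, while shCHD4#1 replicates 1 and 2 are of the first. Within the first kind the MXD4 difference was -0.035 log2, and within the second, with 1 knockdown library, 0.35. MXI1 at 24 h also passed with quantile normalisation, DESeq2 and library kind as a term, and MNT at 48 h in 6 further alternatives and without shScramble replicate 4 (adjusted p up to 0.0461).

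With shCHD4#2 no member rose and 4 fell at 24 h (4.05% of all genes called higher, 7.01% lower and 11.1% in all), and 6 fell at 48 h (17.5%, 20.3% and 37.9%). MYCN was at 53.1, 33.3 and 38.5 at 24 h and 26.6, 10.8 and 23.2 at 48 h, below every control library, and fell, with log2 changes of -1.67 ± 0.23 (adjusted p = 0.000431) and -2.57 ± 0.30 (adjusted p = 2.00e-05). In second-kind libraries alone the 24 h value was -1.74 (adjusted p = 0.0518). MXD4 was at 1718, 1336 and 1323 at 24 h and 843, 512 and 612 at 48 h, again below every control. It fell at both times, with log2 changes of -0.74 (SE 0.14, adjusted p = 0.00397) and -1.998 (SE 0.14, adjusted p = 3.62e-07), 3.995-fold lower at 48 h, in each alternative run. This fall deepened between the times, a difference of -1.26 ± 0.21 log2 (adjusted p = 0.00617), the one member of 10 called in a comparison where 0.989% of all genes were (0.694% lower). MYCL at 48 h was at 87.5, 67.8 and 82.1, below every control, and fell by 0.96 (adjusted p = 0.0115), a call lost without shCHD4#2 replicate 2 (0.061) and in second-kind libraries alone (-0.92, adjusted p = 0.105). MAX fell to 1049.6, 925 and 1041 at 48 h from 1184, 1233, 1480.4, 1450.3 and 1544 (-0.45 ± 0.11, adjusted p = 0.00541), in each alternative run. MXI1 fell to 1396, 1530.5 and 1482 (-0.50 ± 0.10, adjusted p = 0.00191), also in each. At 24 h MAX (-0.47 ± 0.13, adjusted p = 0.034) and MXD1 (-0.37 ± 0.10, adjusted p = 0.027) were called lower. The MAX call was lost without shScramble replicate 3, 4 or 5 or shCHD4#2 replicate 2 or 3 (adjusted p from 0.0609 to 0.183). It was also lost under the replicate block (-0.33, adjusted p = 0.057), with no filter on low values (0.0536) and with only the groups compared (0.1015). That of MXD1 was lost without shScramble replicate 1 or shCHD4#2 replicate 2 or 3 (0.056 to 0.116) and by edgeR (0.0524). Quantile normalisation (0.0674), only the groups compared (0.0731) and shScramble replicates 3 to 5 alone (0.0613) also ended the MXD1 call. Neither passed in second-kind libraries alone (adjusted p = 0.0516 and 0.109). MXD3, MNT and MLX did not pass with shCHD4#2 at either time, and MLX at 48 h was at 1552, 1724 and 1712, above every control, with a difference of 0.25 (adjusted p = 0.0693). MLX there passed in 5 alternatives (quantile normalisation, median centring, edgeR, DESeq2 and library kind as a term; adjusted p from 0.0116 to 0.0498). MXD1 at 48 h passed in DESeq2 (-0.25, adjusted p = 0.0294), with library kind as a term (0.0287) and without shScramble replicate 3 (0.0304).

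The CHD4 hairpins thus differed from each other in most members, although CHD4 itself overlapped between them at 24 h. At 48 h the CHD4 counts of shCHD4#2 lay below those of shCHD4#1. Tested directly, 5 members were higher with shCHD4#1 than with shCHD4#2 at 24 h and 1 was lower (5.62% of all genes called higher, 4% lower and 9.62% in all), and 6 were higher and 1 lower at 48 h (19.2%, 18.6% and 37.9%). The difference was largest for MYCN at both times, at 2.28 ± 0.26 log2 (adjusted p = 0.000141) and 3.003 ± 0.34 (adjusted p = 2.64e-05). MXD4 differed by 0.95 ± 0.16 (adjusted p = 0.00203) and 2.02 ± 0.15 (adjusted p = 1.54e-06). At 48 h MYCL, MXI1, MAX and MXD1 were also higher with shCHD4#1, by 1.07, 0.91, 0.59 and 0.58, and MLX was lower, at -0.75 (adjusted p = 0.000222). The MYCL call at 48 h was lost without replicate 2 of either hairpin (adjusted p = 0.0522 and 0.0501). At 24 h MYCL (0.998), MXD1 (0.50) and MXI1 (0.50) were higher and MLX (-0.63) lower. Of these, MLX lost its call without replicate 1 or 2 of shCHD4#1 or 2 or 3 of shCHD4#2 (adjusted p from 0.0825 to 0.158), MXI1 without shCHD4#1 replicate 2 or shCHD4#2 replicate 1 or 3 (0.0677 to 0.124), and MXD1 without shCHD4#2 replicate 3 (0.0504). Under the replicate block MAX was also called at 24 h (0.35, adjusted p = 0.0393). MYC was not called at either time, and its difference at 48 h was 0.015 with a 95% interval of -0.38 to 0.41. MXD3 and MNT were not called either.

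**Figure D3:**
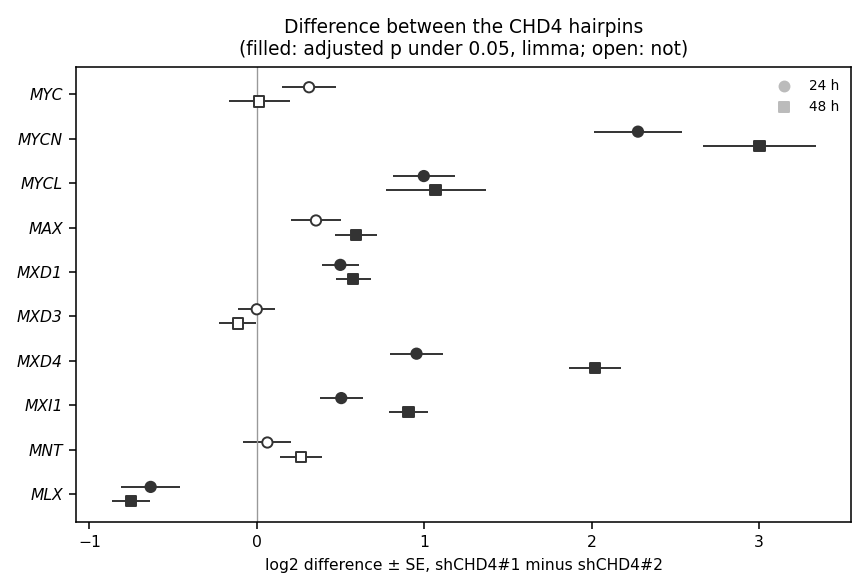
log2 difference between the CHD4 hairpins, shCHD4#1 minus shCHD4#2 (x axis, points with SE), for each of the 10 genes (y axis) at 24 h (circles) and 48 h (squares), filled where the adjusted p is under 0.05. MYCN and MXD4 lie furthest to the right (3.003 and 2.02 at 48 h), MLX lies to the left (-0.75), and MYC is near 0 at 48 h (0.015).

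Set against the mean of both CHD4 hairpins, shFLI1 gave 2 higher and 6 lower members at 24 h (28% of all genes called higher, 24.8% lower and 52.9% in all) and 2 higher and 4 lower at 48 h (32.9%, 32.8% and 65.7%). MXD4 was higher with shFLI1 by 1.09 ± 0.14 (adjusted p = 1.43e-05) at 24 h and by 2.23 ± 0.13 (adjusted p = 4.34e-09) at 48 h, and MXD3 by 1.24 ± 0.10 (adjusted p = 1.32e-07) and 0.52 ± 0.10 (adjusted p = 0.000256). MYCL was lower at both times (-1.02 and -0.92), and so was MNT (-0.39 and -0.61). The MNT call at 24 h was lost without shFLI1 replicate 1 or 2 (adjusted p = 0.0652 and 0.0775). MYCN was lower at 24 h (-1.56, adjusted p = 4.82e-05), while at 48 h, where the hairpins to CHD4 lay far apart, the difference was -0.10 with a 95% interval of -0.72 to 0.53. MXI1 was lower at 24 h (-0.47, adjusted p = 0.00257). The calls of MAX at 24 h (-0.34, adjusted p = 0.0369) and of MXI1 at 48 h (-0.26, adjusted p = 0.033) were lost on leaving out most single libraries (MAX: shCHD4#1 replicates 1 and 3, shCHD4#2 replicates 1 and 3 and all 3 of shFLI1, adjusted p up to 0.149; MXI1: replicate 2 of shCHD4#1, 2 and 3 of shCHD4#2 and all 3 of shFLI1, up to 0.101). No member changed between the times with shCHD4#1, where 1 of all genes (0.00476%) was called.

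The balance of the network at the RNA level shifted with shFLI1 and, at 48 h, by less and the same way with shCHD4#1. Of the ratios given below for shCHD4#2 at 48 h, only MXD4 over MYC had every library on the same side of all controls, below and not above as with shFLI1. MXD4 over MAX, not among them, was also below, at 0.348 to 0.504 against 0.932 to 1.44. The share of MYC in the 3 MYC genes was above, at 99.1 to 99.6% against 98.5 to 98.85%. Per kb of exon, MYC exceeded MAX 17.4 ± 2.84 times (SD, n = 5) with shScramble at 24 h and 18.6 ± 2.31 times at 48 h. With shFLI1 the ratio was 2.97 ± 0.716 and 2.20 ± 0.528 (n = 3), and the highest shFLI1 library, at 3.79, lay far below the lowest control, at 15.5. With shCHD4#1 at 48 h it was 11.7 ± 1.51, ranging from 10.4 to 13.4 against 16.6 to 22.5 in the controls, and with shCHD4#2, where MYC and MAX were both lower, it was 17.8 ± 4.26. The level of MXD4 over that of MYC was 0.0610 ± 0.0150 and 0.0639 ± 0.00840 with shScramble. It came to 0.987 ± 0.236 at 24 h and 1.47 ± 0.355 at 48 h with shFLI1, where MXD4 (866 ± 113 per kb) stood first and MYC (605 ± 141 per kb) next in the order of the 10 genes, with overlapping libraries. In all 3 shFLI1 libraries at 48 h MXD4 exceeded MYC per kb (1.17 to 1.86). In normalised counts, without the exon length, mean MXD4 (4291) was above mean MYC (1940) with shFLI1 already at 24 h. With shCHD4#2 at 48 h the ratio was 0.0248 ± 0.0124, below every control library, and MXD4 (92.9 ± 24.1 per kb) stood in place 8. The 5 opposing factors MXD1, MXD3, MXD4, MXI1 and MNT together had 0.240 ± 0.0252 times the MYC level with shScramble and 3.01 ± 0.616 times with shFLI1 at 48 h. With shCHD4#1 at 48 h it was 0.341 to 0.440, above the 0.221 to 0.282 of the controls, and with shCHD4#2, at 0.200 to 0.287, it overlapped them. The summed level per kb of the 5 factors itself was 1311 to 1429 with shScramble, 1665 to 1835 with shFLI1, 1505 to 1714 with shCHD4#1 and 876 to 949 with shCHD4#2 at 48 h, so that most of the shift in the ratio with shFLI1 lay in MYC. The share of MYC in the 3 MYC genes was 94.9 ± 0.544% with shFLI1 at 48 h. These ratios of RNA are descriptions and do not measure protein or dimers.

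**Figure D4:**
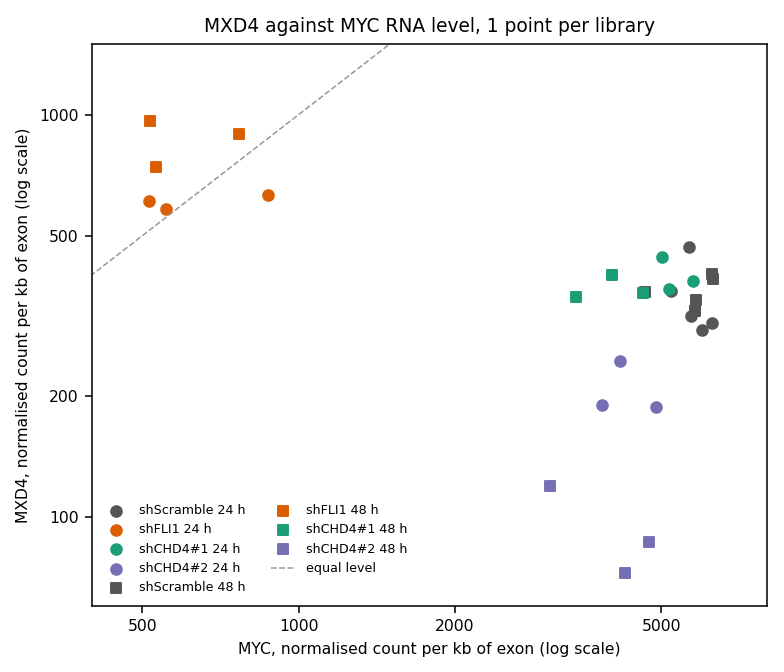
MYC level (x axis) against MXD4 level (y axis), both in normalised counts per kb of exon on log scales, 1 point per library coloured by hairpin (circles 24 h, squares 48 h), with a dashed line where the levels are equal. The shFLI1 libraries lie above the line except 1 at 24 h (MXD4 over MYC 0.726 to 1.18), and the shCHD4#2 libraries at 48 h (0.0170 to 0.0391) lie lower against it than all shScramble libraries.

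Genes that MYC is known to activate fell with shFLI1. Of 40 such genes, chiefly of ribosome production, nucleotide synthesis and glycolysis, 32 fell and none rose at 24 h, and all 40 fell at 48 h, while 22.5% and 31.7% of all genes were called lower. The median log2 change of the 40 was -1.005 at 24 h and -1.64 at 48 h, against 0.0038 and 0.0090 for all genes. MYBBP1A, a nucleolar protein, was at -2.09 and -2.66. The transferrin receptor TFRC was at -1.64 and -2.58, the RNA polymerase I subunit POLR1B at -1.68 and -1.999, and the glycolytic enzyme HK2 at -2.45 and -2.76. The nucleoside diphosphate kinase NME1 went from -0.59, a call lost without shFLI1 replicate 3, to -2.65 (adjusted p = 2.89e-10). Of 12 genes that MYC is known to repress, 11 were tested, of which 9 rose and 1 fell at 24 h and 10 rose and 1 fell at 48 h (24.2% and 32.2% of all genes called higher). The member that fell was lost without shScramble replicate 1, 3, 4 or 5 or shFLI1 replicate 2 or 3 at 24 h and without shFLI1 replicate 1 or 3 at 48 h, which left 0. The median of the 11 was 1.54 and 2.94. The cell cycle inhibitor CDKN1C rose by 3.98 and 4.77, the matrix protein THBS1 by 1.54 and 3.28, the growth factor receptor PDGFRB by 2.02 and 3.15, the inhibitor CDKN1B by 1.64 and 1.66, and the growth arrest gene GAS1 by 0.84 and 2.94. Many of these genes have other regulators, and the part of MYC in their change was not tested.

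With the CHD4 hairpins the medians of these lists moved far less than with shFLI1. Of the 40 activated genes 0 rose and 11 fell with shCHD4#1 at 48 h, where 15.5% of all genes were called lower and the list median was -0.25. That count was 7 under the replicate block, 22 without shScramble replicate 2, 7 without shScramble replicate 3, 4 or 5 or shCHD4#1 replicate 1, and 6 without shCHD4#1 replicate 2. Against shScramble replicates 3 to 5 alone, where library kind is mixed with the knockdown, it was 29. Of all 21025 genes, 5965 were called in either direction in the main fit. That number was 6488 without shScramble replicate 2 and 3699 without shCHD4#1 replicate 2. With shCHD4#2 4 rose and 9 fell at 48 h (17.5% and 20.3% of all genes, list median -0.12). There the count that rose was 2 without shScramble replicate 1 or shCHD4#2 replicate 2 or 3, and the count that fell was 15 without shScramble replicate 2 and 19 against shScramble replicates 3 to 5 alone. UBTF, which organises ribosomal DNA for RNA polymerase I, fell by 0.80 and 1.23 with shCHD4#1 and shCHD4#2 at 48 h. Of the 11 repressed genes, 1 rose and 2 fell with shCHD4#1 and 2 rose and 1 fell with shCHD4#2 at 48 h, while 28.4% and 37.9% of all genes were called in either direction. Without shScramble replicate 2 the first count was 2, and without shScramble replicate 5 the last was 2. CDKN1C was higher with shCHD4#1 (1.44), CDKN1B was higher with shCHD4#2 (0.68), and GAS1 was lower with both (-1.09 and -1.62), though with shCHD4#1 not in second-kind libraries alone.

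**Figure D5:**
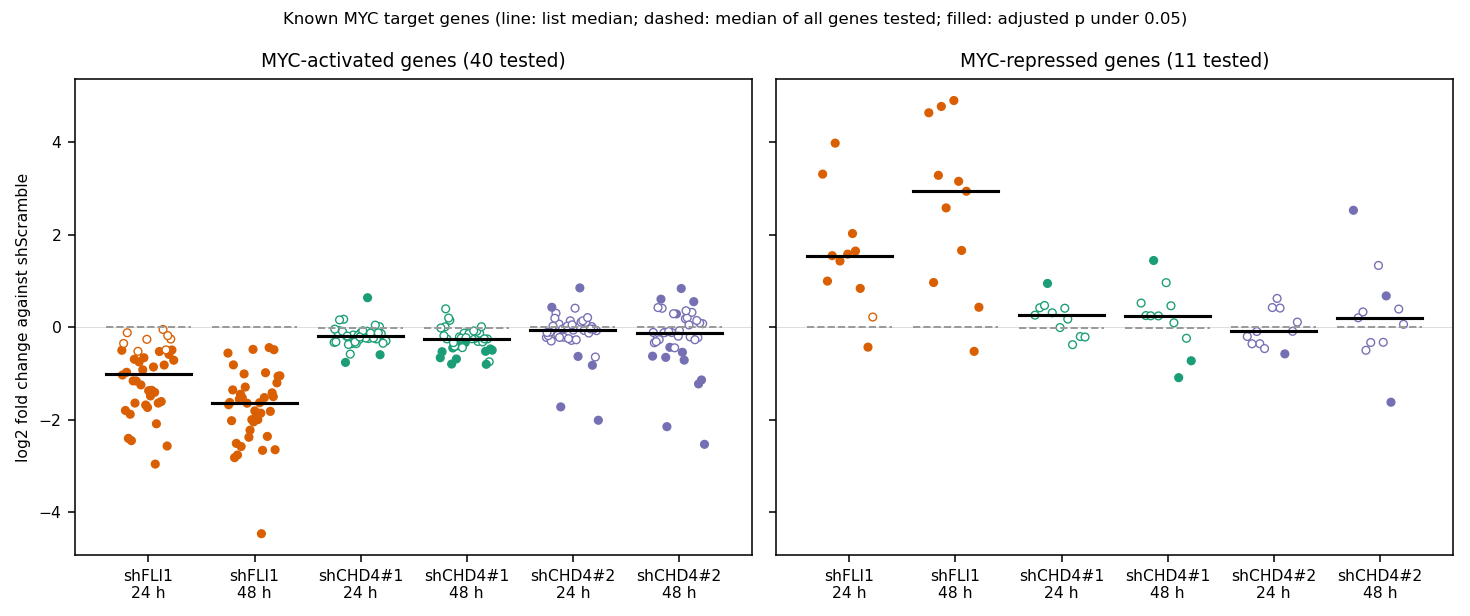
log2 fold change against shScramble (y axis) of the MYC-activated genes (left, 40 tested) and the MYC-repressed genes (right, 11 tested) for each hairpin and time (x axis), 1 point per gene, filled where the adjusted p is under 0.05, with the list median as a solid line and the median of all genes tested as a dashed line. With shFLI1 the list medians are -1.005 and -1.64 on the left and 1.54 and 2.94 on the right, and with the CHD4 hairpins they lie within -0.25 to 0.26.

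Of the other dimer partners, MGA, which pairs with MAX, fell with shFLI1 by 0.43 and 0.57 at 24 and 48 h. MLXIPL, the MLX partner that senses glucose in liver, fell by 1.45 and 3.96, while the more widely expressed MLXIP rose by 0.68 at 48 h. MLXIP also rose with shCHD4#2 at 48 h (0.46, adjusted p = 0.000882). Of the 5 genes listed as targets of MLX and MLXIP, 4 were tested. ARRDC4, a relative of TXNIP that answers glucose, rose at 48 h by 1.46 (adjusted p = 0.000438) with shCHD4#1 and 2.73 (adjusted p = 1.73e-06) with shCHD4#2. TXNIP, the thioredoxin-interacting protein, rose by 1.39 and KLF10 by 1.07 with shCHD4#2 at 48 h, so that 3 of the 4 rose there (17.5% of all genes called higher). With shFLI1 TXNIP rose by 1.40 at 48 h, and HK2, which is in the MYC-activated list too, fell as given above.

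Partners and regulators of MYC were described at 48 h, where 32.2% of all genes were called higher and 31.7% lower with shFLI1. Of 15 coactivators and chromatin partners, 4 rose and 6 fell with shFLI1. With median centring 0 rose, against shScramble replicates 3 to 5 alone or without shScramble replicate 2 the count was 2, and without shFLI1 replicate 1 or 2 it was 1. The helicase RUVBL1 was at -0.92 log2 at 24 h and -1.74 at 48 h, WDR5, which tethers MYC to chromatin, at -0.93 and -1.19, and the acetyltransferase KAT2A at -0.87 and -1.31. RUVBL2 was at -1.20 at 48 h. KAT5 rose by 0.42 at 24 h and 0.37 at 48 h, the later call lost in 4 of 18 alternatives. With shCHD4#2 1 rose, or 2 with quantile normalisation or library kind as a term, and 3 fell (17.5% and 20.3% of all genes), ZBTB17, through which MYC represses, by 0.57. Of 16 genes of MYC protein turnover, 5 rose and 7 fell with shFLI1, 3 rising without shFLI1 replicate 1 and 4 falling with quantile normalisation. The ubiquitin ligase subunit FBXO32 rose by 2.26 and the deubiquitinase USP28 by 1.06. CIP2A, which guards MYC from dephosphorylation, was at -1.48, the deubiquitinase USP36 at -1.26 and SKP2 at -0.80. SKP2 was also lower with shCHD4#2 (-0.64 at 24 h and -0.98 at 48 h). Of 15 SIN3 and NCOR corepressor subunits, through which the MXD proteins act, 2 rose and 4 fell with shFLI1, 1 rose and 4 fell with shCHD4#1, and 1 rose and 7 fell with shCHD4#2. The count that rose with shFLI1 was 6 with quantile normalisation and 1 with median centring, and the count that fell with shCHD4#1 (15.5% of all genes) was 8 against shScramble replicates 3 to 5 alone. Left out singly, shFLI1 replicate 3 made the first count 1, shScramble replicate 1 made 7 lower with shCHD4#1, and shCHD4#2 replicate 2 made 0 higher and 4 lower with shCHD4#2, as replicate 3 made 0 higher. SAP30, a SIN3 subunit, was lower with all 3 hairpins at 48 h (-1.07, -0.57 and -0.65). Of 7 regulators of MYC RNA, 2 rose and 5 fell with shFLI1 at 48 h, 1 and not 2 rising with median centring or without shScramble replicate 3, 4 or 5 or shFLI1 replicate 1 or 3. Among those that fell were IGF2BP1, which stabilises MYC RNA, at -0.95, CNBP at -0.80, HNRNPK at -0.60 and CTCF at -0.30. IGF2BP3 was among those that rose, by 0.66. With the CHD4 hairpins at 48 h 0 of the 7 rose, 3 fell with shCHD4#1 and 4 with shCHD4#2 (15.5% and 20.3% of all genes). HNRNPK (-0.47 and -0.50) and CTCF (-0.39 and -0.59) were lower with both, in each alternative run. CNBP (-0.31 and -0.26) was too, with calls lost in 4 and 10 of 19 alternatives. CASC11 and PVT1, long noncoding neighbours of MYC, both fell with shFLI1 and were at -1.93 and -1.90 log2 at 24 h and -1.29 and -1.99 at 48 h. With shCHD4#2 at 48 h CASC11 rose by 0.92 (adjusted p = 0.0266), a call lost without shCHD4#2 replicate 2 or 3 or with only the groups compared, and PVT1 did not pass.

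The genes whose pattern over the 8 groups was most like that of a member were taken from 14216 genes with a mean of at least 100, by the root mean square difference of centred log2 group means, which is given in brackets in log2 units. Nearest to MYC were PRR5L (0.210), JPH1 (0.231), MARCHF1 (0.236). PRR5L, an mTOR complex partner, was at -3.09 and -3.10 log2 with shFLI1 at 24 and 48 h. Nearest to MYCN were HS6ST1 (0.383), KANK3 (0.425), CAVIN4 (0.440), a looser match, and nearest to MYCL were BRSK2 (0.158), UBE3C (0.169), SEMA3G (0.172). MAX lay close to TBC1D13 (0.0714), EHMT1 (0.0724), CNKSR2 (0.0757), MXD3 to TRIM69 (0.0837), EXOC3-AS1 (0.104), FGD5-AS1 (0.118) and MXI1 to RALGDS (0.0609), AL162417.1 (0.0637), STX6 (0.0743). Nearest to MXD4 were IFI44L (0.146), FGFR2 (0.203), SEMA3F (0.216). IFI44L, an interferon-induced gene, was at 1.40 with shFLI1 and -1.81 with shCHD4#2 at 48 h. These are descriptions over 8 group means that share libraries and controls.

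The authors' own comparisons, made with another test than the one used here, called fewer members. In the authors' deposited table for shFLI1 at 48 h, where 20.9% of genes had an adjusted p under 0.05, MYC was at -3.63 log2 (adjusted p = 4.04e-55), MYCL at -1.81 (0.000465) and MXD4 at 1.12 (0.0115), while MYCN, at -0.90, had an adjusted p of 0.688. In the authors' deposited table for shCHD4#2 at 48 h (5.81% of genes called) MYCN was at -2.50 (1.84e-08) and MXD4 at -2.05 (1.05e-22), and in the authors' deposited table for shCHD4#2 at 24 h (0.527% called) MYCN was at -1.56 (0.0263). MYC with the CHD4 hairpins was not called in the authors' deposited tables at either time, where 0.671% and 3.24% of genes were called with shCHD4#1 at 24 and 48 h. The unadjusted p in the authors' deposited tables was exactly 1 for 36.9 to 68.8% of genes. MXD4 with shCHD4#2 at 24 h was at -0.80 there with an SE of 0.14, and its unadjusted p in the authors' test was 0.0683. A test of that change against 0 would give a far smaller p. The authors' calls and the limma calls are therefore not like for like.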

How the data were processed

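The values the authors deposited are a normalised signal, in which the read counts of a library were all divided by the same size factor. Per the submitters' processing notes GRCh38, HISAT2 2.1.0, featureCounts 1.6.0, DESeq2 1.34.0, SAMtools 1.7 and FastQC 0.11.7 were used. The authors' comparison tables hold deposited log2 fold changes with standard errors, a deposited test score and deposited p-values. One table named for shFLI1 at 24 h was left out, because its values match the difference of shScramble over time. Per the labels' protocols the libraries were stranded total RNA libraries of biological replicates. No annotation release or strand setting is given in the sources used here.

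Whole reads could be recovered for at least 99.95% of values in each library, within 0.02 of a read. limma 3.58.1 (R 4.3.3) was run on log2(value + 1) for genes with a mean of at least 10, each time alone with its 4 groups, and all 28 libraries together for changes between times. Fold changes are on that scale, which understates those of low genes. p-values were adjusted by Benjamini-Hochberg over all genes tested and called at 0.05. The fits were tested on simulated data. edgeR 4.0.16 and DESeq2 1.42.0 on recovered reads (without shCHD4#1 replicate 3 at 24 h), other scalings, filters, pseudocounts, control sets and fits without each library were alternatives. Counts per kb use the exon length of GENCODE 29, which matched 34232 of 35488 gene identifiers.

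Replicate numbers were taken from the labels. Same-numbered libraries deviated together in the CHD4 comparisons (r = 0.119 to 0.548 against shScramble and 0.24 to 0.708 between hairpins, across genes) and in shScramble over time (0.451 to 0.639). In these groups libraries of the same number are also of the same kind, and the correlation of differently numbered libraries was not computed. Pairing and library kind were therefore not told apart here. The numbers were treated as pairs in the replicate block only, and the main fits held no block. The members and gene lists were chosen with earlier results of these data known, and the lists are described by counts and medians only. The genes open to naming were all 10 members, the targets FLI1 and CHD4, every gene of lists of up to 6, and of longer lists up to 4 genes with the smallest adjusted p with shFLI1 at 48 h and 2 with the CHD4 hairpins at 48 h. Not each of these list genes is printed. Of the genes most like a member the nearest 3 are named, for MYC and members called in at least 3 of the 6 knockdown comparisons.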

Additional observations from a re-analysis of the deposited data

Results flagged for a closer look

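In 1 shScramble library at 48 h, replicate 4, MXD3 was at 664.5 normalised counts, below the others of a group at 729, 754, 747, 664 and 732 (replicates 1 to 5). The gap to its nearest neighbour was 0.730 of the range of the group, above the critical 0.71 of Dixon's test for 5 samples. Of 20 groups of 5 tested (10 genes at each of 2 times) chance gives about 1.

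MXD3 responded to shFLI1 differently at 48 than at 24 h. The rise over shScramble was 1.03 log2 at 24 h and 0.28 at 48 h, a change of -0.75 (limma, adjusted p = 0.00021), with shFLI1 libraries at 1224 to 1456 and then 817 to 942 normalised counts.

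MXD4 responded to shCHD4#2 differently at 48 than at 24 h. The difference from shScramble was -0.74 log2 at 24 h and -1.998 at 48 h, a change of -1.26 (limma, adjusted p = 0.00617), with shCHD4#2 libraries at 1323 to 1718 and then 512 to 843 normalised counts.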

How the results depend on the processing

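Of 60 results (10 genes in 6 comparisons with shScramble), 31 were called, of which 17 kept the call in each alternative and 14 lost it in at least 1. Of 123 called results of named list genes and of FLI1 and CHD4, 87 kept the call in each and none changed sign. Sign changes among the members were all in values that had not passed. Quantile normalisation gave MXD1 0.012 with shFLI1 at 24 h and MYC 0.059 over time with shScramble, where edgeR gave 0.012 and DESeq2 0.0025. Median centring gave MXD1 -0.10 with shFLI1 at 48 h and MXD3 -0.0039 between the CHD4 hairpins at 24 h, where edgeR and DESeq2 gave MXD3 -0.053 and -0.043 and MNT -0.025 and -0.016. Controls 3 to 5 alone gave MLX -0.072 with shCHD4#2 at 24 h, and library kind as a term gave MXD4 -0.0020 with shCHD4#1 at 48 h. Centring moved the median of all genes with shFLI1 at 48 h from 0.0090 to -0.11 log2.

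The replicate block gave MAX 0.026 with shCHD4#1 at 24 h and MXD4 -0.055 at 48 h, and beyond the calls named in the report it changed no other call of a member in the CHD4 comparisons. With shFLI1 same-numbered libraries did not deviate together with those of shScramble (r = -0.15 to 0.0449). Under the block MXD3 was 0.24 (limma, adjusted p = 0.0857) and MXI1 -0.24 (adjusted p = 0.0697) with shFLI1 at 48 h. Single libraries left out gave, as log2 ranges, MXD1 -0.14 to 0.013 and -0.045 to 0.086 with shFLI1 at 24 and 48 h, MYCL -0.015 to 0.33 and MXD4 -0.031 to 0.060 with shCHD4#1 at 48 h, MNT -0.033 to 0.14 with shCHD4#2 at 48 h, MXD3 -0.053 to 0.047, MNT -0.089 to 0.17 (24 h) and MYC -0.17 to 0.15 (48 h) between the CHD4 hairpins, and MYC -0.26 to 0.16, -0.24 to 0.079 and -0.042 to 0.069 for the changes over time with shFLI1, shCHD4#2 and shScramble.

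Counts of all genes called moved over 1.5 times mainly with the CHD4 hairpins at 24 h. For shCHD4#1 2385 became 1499 with only the groups compared, 4189 with controls 3 to 5, 4531 with library kind as a term and 1010 in second-kind libraries. For shCHD4#2 2325 became 1267 with only the groups compared, 4684 with the kind term and 751 in second-kind libraries. Between the hairpins 2022 became 3482 under the replicate block. The change over time with shCHD4#1 went from 1 to 0 with a pseudocount of 5, no filter or edgeR and to 2 with DESeq2, and that with shCHD4#2 from 208 to 117 with no filter, 337 with quantile normalisation, 650 under the replicate block and 643 with DESeq2, where the share higher among those called went from 29.8 to 40.8%. shScramble over time went from 0 to 2 with DESeq2. Leaving out single libraries gave 908 to 2851 and 886 to 2321 at 24 h and 3699 to 6488 and 5296 to 8294 at 48 h for shCHD4#1 and shCHD4#2, 874 to 1721 between them at 24 h, and 0 to 3 and 12 to 1282 for their changes over time; the lowest counts against shScramble and at 24 h between hairpins came without replicate 2 of a CHD4 hairpin. MYCN and MYCL, at about 10 to 226 normalised counts, were the least precise of the 10 genes.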
